A study of Drosophila melanogaster with 9 samples.

Results

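Whole Drosophila melanogaster embryos in which Insc-Gal4 drove 6 transcription factors at once (hb, ase, Kr, wor, nub and SoxN, named Hexa by the submitters) were compared with embryos carrying the driver alone. The comparison uses 6 of the 9 RNA sequencing libraries of the series, 3 Hexa and 3 control, chosen by the genotype in their titles. Control embryos were Insc-Gal4 over OregonR chromosomes, a wild-type stock, and Hexa embryos were Insc-Gal4 over the UAS transgenes. The other 3 libraries, named Quad, carry the driver with ase, Kr, wor and SoxN. Their values are given beside those of Hexa where they help to read a gene. They also entered the statistical fit, where they add to the estimate of the spread between libraries. Every library came from a separate collection of more than 200 embryos at stage 16 or later, the end of embryogenesis, and the labels call the 3 libraries of a genotype biological replicates.

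Insc-Gal4 is active in neuroblasts, the stem cells of the fly nervous system, and in cells that have just left them. Neuroblasts divide asymmetrically, pass through an ordered series of temporal factors that begins with hb, Kr and nub, and stop dividing as the embryo matures, while ase, wor and SoxN are factors of the neuroblast and early neurectoderm. In bulk RNA of whole embryos, fewer cells of a type and less RNA per cell cannot be told apart. No group carried the UAS transgenes without the driver, the strain background of the UAS chromosomes is not in the labels, and control and Hexa carry different experiment numbers there. The transgenes, the strain background and the experiment therefore cannot be told apart, although the design text describes the control and Hexa embryos as 1 experiment.

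Expression was read as RPKM, reads per kilobase of transcript, scaled by the authors to the size of the library. Genes with at least 0.5 RPKM in 3 of the 9 libraries were tested with limma on log2(RPKM + 0.1), and a gene was called at a Benjamini-Hochberg adjusted p under 0.05. A log2 difference here is Hexa minus control on that scale, which understates changes of genes near 0. Of 6190 genes tested, 1184 were called higher in Hexa (19.1%) and 813 lower (13.1%), and these shares are the background for every count of a gene group. Among them 488 rose (7.88%) and 109 fell (1.76%) by at least 2-fold. The median log2 difference of all tested genes was 0.03. Levels are given for libraries 1, 2 and 3 of a genotype in that order, and each genotype has 3 libraries. The count of calls depended on the libraries: it was 962 without control 1, 1002 without Hexa 1 and 1250 without Hexa 2. Of the calls, 580 of the higher and 222 of the lower were kept whichever control or Hexa library was left out. The fit held all 9 libraries. With only the 6 of control and Hexa in it, 681 genes were called higher and 244 lower.

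The deposited counts summed to 8555639 to 11687961 per library. In genes with 1 annotated transcript 1 RPKM over 1 kilobase stood for 63.7 to 94.8 counts, least in Hexa 2 and Hexa 1. In genes with several transcripts the counts held a median of 1.78 to 3.17% of the reads on that scale, so levels are given as RPKM. Markers of the main tissues of a whole embryo were present in every control, among them fne of neurons, repo of glia, mira of neuroblasts, Mhc of muscle, srp of blood cells and GATAe of the midgut. Of 17 tested heat shock chaperone genes 10 were called higher. Their median log2 difference was 2.1, and 0.59 with Hexa 1 as the only Hexa library. The count was 4 without control 1, control 2, Hexa 2 or Hexa 3 and 6 without control 3 or by edgeR. It was 2 with the heat shock covariate. That covariate is the mean of 16 of these same genes, so it removes most of their rise by construction. The mean of 16 inducible heat shock genes, relative to the control mean, stood at 0.84, 2.28 and 2.62 log2 units in Hexa 1, 2 and 3 and at 0.25, -0.66 and 0.41 in controls 1, 2 and 3. Hexa 2 and 3 stood far above Hexa 1 and every control in this mean. Its part in the other results was not tested beyond a fit with it as a covariate. In that fit 492 genes were called higher and 82 lower. Every Hexa library stood above every control in this mean, so the fit cannot fully separate it from the genotype. A call lost there is not by itself a smaller difference. Among such genes GATAe moved from -0.58 to -0.64 log2 units and serp from -0.42 to -0.49. By contrast insb moved from 1.27 to 0.77 and mira from 0.66 to 0.43. Counts of called list members are therefore also given with this covariate, with Hexa 1 as the only Hexa library, and by edgeR and DESeq2 on the deposited counts, wherever they differ by over 1.5-fold. The difference between the genotypes also ran with transcript length, as the plot of length classes shows. Of 2208 protein-coding genes whose longest annotated transcript has up to 1500 bases, 30.6% were called higher and 4.71% lower. Of 1313 such genes over 3000 bases, 5.41% were called higher and 27.0% lower. All 3 Hexa libraries had a positive median in the shorter class (0.29, 0.50 and 0.23) and a negative one in the longer class (-0.26, -0.55 and -0.16). For this reason most counts are also given after the trend of each library with log2 transcript length was subtracted, an alternative chosen after seeing the data, under which 18.9% of 6091 genes were called higher and 19.1% lower.

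**Figure D1:**
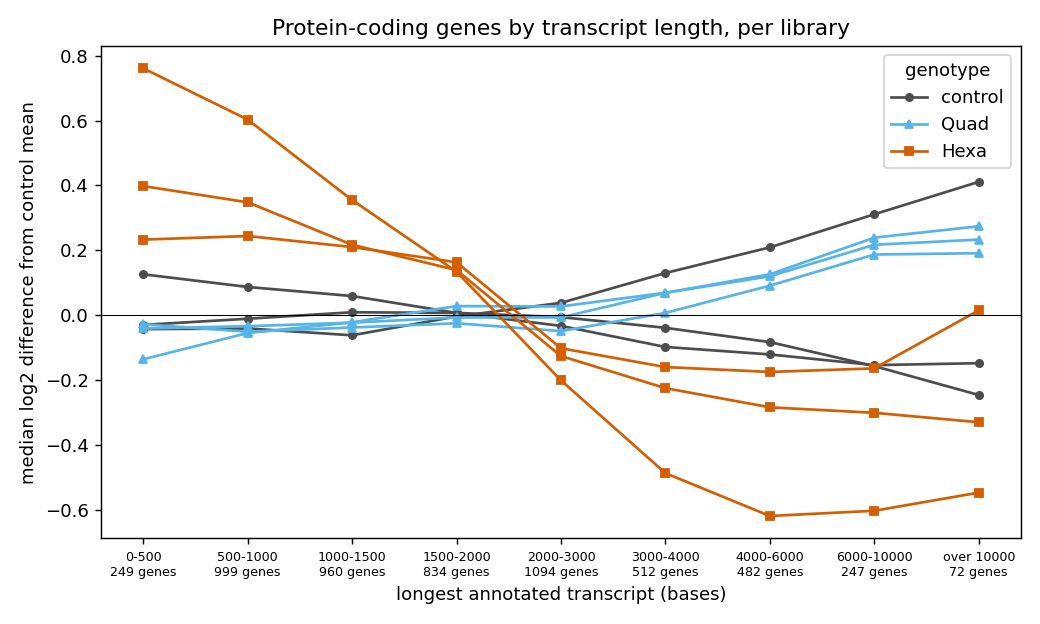
Median log2 difference from the control mean (vertical axis) of protein-coding genes in 9 classes of longest annotated transcript length (horizontal axis, bases), with 1 line for each of the 9 libraries. The 3 Hexa lines lie above 0 up to 2000 bases and below 0 from there to 10000 bases, reaching -0.62 in Hexa 2 for 4000 to 6000 bases. The control and Quad lines stay between -0.25 and 0.41, the highest being control 2 for transcripts over 10000 bases.

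Of the driven genes, hb, wor, ase and nub were called higher in Hexa, Kr was called lower and SoxN was not called. The temporal factor hb stood at 1.72, 1.55 and 1.40 RPKM in controls and 18.1, 8.87 and 14.7 in Hexa (log2 difference 3.02 ± 0.443 SE, adjusted p = 0.00212), and Quad embryos, which lack UAS-hb, stood at 6.99, 2.83 and 1.81. The neuroblast factor wor stood at 2.98, 2.56 and 3.11 RPKM in controls and 23.6, 12.9 and 18.2 in Hexa (log2 difference 2.58 ± 0.241 SE, adjusted p = 0.000168). ase stood at 2.45, 2.40 and 2.35 RPKM in controls and 6.75, 5.01 and 6.15 in Hexa (log2 difference 1.27 ± 0.143 SE, adjusted p = 0.000458). For hb, wor and ase no Hexa library overlapped a control, as in 28.0% of all tested genes for higher and 23.7% for lower values in Hexa. The POU factor nub stood at 18.4, 17.9 and 18.8 RPKM in controls and 31.6, 22.3 and 28.5 in Hexa (log2 difference 0.56 ± 0.133 SE, adjusted p = 0.0154), a call lost without Hexa 1 (highest adjusted p = 0.0525). Kr, a zinc finger temporal factor, stood at 6.61, 8.20 and 6.91 RPKM in controls and 4.59, 4.46 and 5.57 in Hexa and was called lower (log2 difference -0.56 ± 0.145 SE, adjusted p = 0.0213), a call that did not hold without Hexa 1 or Hexa 2 (highest adjusted p = 0.0639) and, with the length trend subtracted, not reached (adjusted p = 0.0511). SoxN, a Sox factor of the neurectoderm, stood at 20.3, 24.8 and 20.4 RPKM in controls and 28.4, 20.3 and 29.7 in Hexa, with overlapping groups (log2 difference 0.24 ± 0.155 SE, adjusted p = 0.218); it passed with the length trend subtracted (log2 difference 0.46, adjusted p = 0.00403). In edgeR's fit of the deposited counts the sign was the opposite for hb (log2 difference -0.26, adjusted p = 0.479) and nub (log2 difference -1.15, adjusted p = 0.0828), both with several annotated transcripts, and DESeq2 on the same counts called nub lower (log2 difference -1.14, adjusted p = 0.0284). The files do not tell the reads of a transgene from those of the gene's own copy. hb, nub and Kr did not pass with the heat shock covariate.

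The largest rises in Hexa embryos included genes known only by a CG number, most of them low in controls. Of 3150 tested genes whose symbol is only a CG or CR number, 655 were called higher (20.8%) and 387 lower (12.3%), shares close to those of all tested genes. The 12 CG genes with the largest rises all have a longest transcript of 434 to 677 bases and rose by 4.89 to 9.47 log2 units. CG8087 stood at 0.0675, 0.156 and 0 RPKM in controls and 133, 148 and 77.9 in Hexa (log2 difference 9.47 ± 0.463 SE, adjusted p = 6.83e-06). CG13135 stood at 0.456, 0.796 and 0.386 RPKM in controls and 346, 359 and 200.2 in Hexa (log2 difference 8.87 ± 0.295 SE, adjusted p = 4.02e-07). CG14852, the most abundant of the 12, stood at 2.55, 4.71 and 1.96 RPKM in controls and 1464, 1599 and 934 in Hexa (log2 difference 8.77 ± 0.302 SE, adjusted p = 4.02e-07). Hexa 3 was the lowest of the 3 Hexa libraries for each of these genes and was still far above every control. Separate groups were a criterion in the choice of the named CG genes. CG32071 stood at 0.144, 0.0712 and 0.123 RPKM in controls and 54.8, 61.2 and 25.3 in Hexa (log2 difference 7.71 ± 0.622 SE, adjusted p = 0.000132). CG32198 stood at 2.61, 1.53 and 0.286 RPKM in controls and 138, 153 and 89.3 in Hexa (log2 difference 6.69 ± 0.963 SE, adjusted p = 0.00216). CG10918 stood at 0.862, 2.86 and 1.01 RPKM in controls and 144, 152 and 92.2 in Hexa (log2 difference 6.43 ± 0.426 SE, adjusted p = 4.19e-05). The others among the 12 were CG14850 (now named Jig), CG14851, CG12522, CG13460, CG1678 (now named whe) and CG14245, with log2 differences of 8.02, 6.24, 5.67, 5.40, 5.07 and 4.89. All 12 calls were kept whichever library was left out and with the length trend subtracted, where CG8087 stood at 9.13 and CG14245 at 4.56 log2 units.

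These CG genes were intermediate in Quad embryos. In 11 of the 12 every Quad library was above every control, and 10 of the 12 were higher in Hexa than in Quad, a comparison in which 13.5% of all tested genes were called higher and which shares the Hexa libraries with the choice of the 12. CG8087 stood at 5.66, 10.9 and 3.61 RPKM in Quad 1, 2 and 3 (Hexa minus Quad, log2 difference 4.22, adjusted p = 0.00121), and CG13135 at 82.2, 94.0 and 60.3 (log2 difference 1.91, adjusted p = 0.00428). CG14850 was the exception in size, at 175, 167 and 164 RPKM in Quad beside 176, 215 and 111 in Hexa (log2 difference -0.07, adjusted p = 0.873). For CG13460 the difference between Hexa and Quad did not pass the threshold either (log2 difference 1.51, adjusted p = 0.0866).

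**Figure D2:**
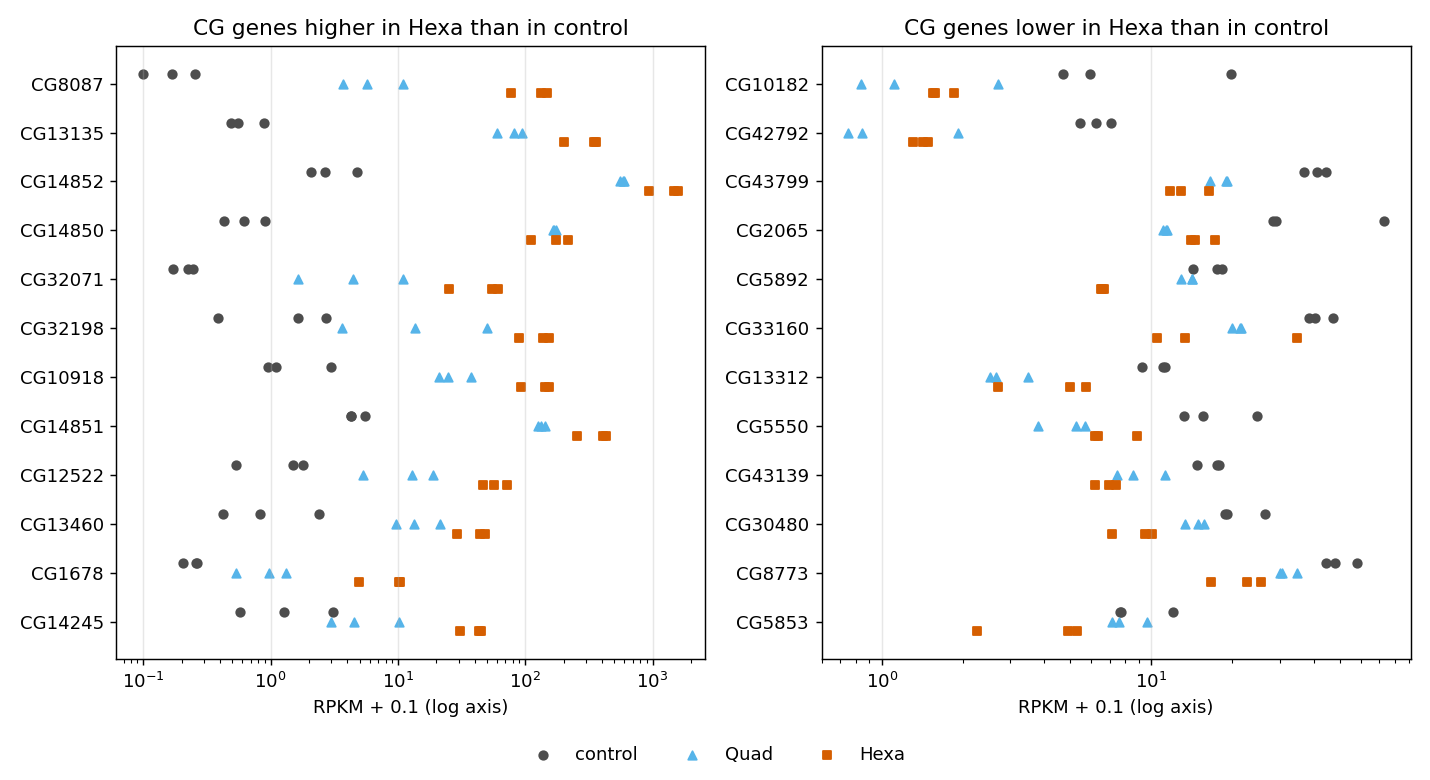
RPKM + 0.1 on a log axis of the 12 CG genes with the largest rises (left) and the 12 with the largest falls (right) in Hexa against control; each symbol is 1 library, 3 per genotype. In the left panel the Hexa squares lie right of all control circles and the Quad triangles mostly lie between them; in the right panel Hexa and Quad both lie left of the controls for most genes.

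Several of the rising genes are neighbours on a chromosome arm. In the gene order of the BDGP 6.54 annotation (Ensembl 115), 20 runs of 3 to 5 consecutive tested genes were all called higher by at least 2-fold, holding 71 of the 488 such genes, and 2 runs of 3 genes were called lower. Some runs hold similar copies of a gene family, such as GstD1 to GstD5. How reads of similar neighbouring copies were assigned is not given in the sources used here. Whether the number of runs exceeds what gene order alone would give was not tested. One run is CG14850, CG14851, CG8087 and CG14852, with rises of 6.24 to 9.47 log2 units. In it CG14851 was already expressed in controls and stood at 4.17, 5.46 and 4.22 RPKM in controls and 429, 407 and 255 in Hexa (log2 difference 6.24 ± 0.198 SE, adjusted p = 2.20e-07). Another run joins lcs, CG1678 and CG10918 (5.07 to 7.50 log2 units), and another CG32071, CG32073 and CG12522 (3.39 to 7.71). CG32073 stood at 11.02, 11.7 and 11.3 RPKM in controls and 125, 139 and 99.4 in Hexa (log2 difference 3.39 ± 0.4 SE, adjusted p = 0.000799).

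A run of moderately expressed genes, CG17107, CG7299, CG7296 and CG7294, rose by 1.69 to 2.99 log2 units. CG7296 stood at 17.5, 18.6 and 35.4 RPKM in controls and 178, 284 and 116 in Hexa (log2 difference 2.99 ± 0.363 SE, adjusted p = 0.000841). CG7294, the most abundant of the run in controls, stood at 116, 103 and 167 RPKM in controls and 453, 527 and 281 in Hexa (log2 difference 1.69 ± 0.245 SE, adjusted p = 0.00159). Hexa 2 was the highest library for both, and neither group overlapped the other. The run CG42494, CG32284, CG14957 and CG14958 rose by 1.43 to 4.10 log2 units, and CG32284 in it stood at 3.97, 8.68 and 4.99 RPKM in controls and 96.8, 73.7 and 53.9 in Hexa (log2 difference 3.68 ± 0.308 SE, adjusted p = 0.000112) and at 6.86, 10.4 and 9.26 RPKM in Quad. Beside the CG number CG10559 lie CG10553, CG10560 and CG10562, which rose by 1.10 to 1.73 log2 units together with it; CG10562 stood at 11.3, 18.6 and 14.6 RPKM in controls and 46.6, 33.0 and 29.8 in Hexa (log2 difference 1.30 ± 0.216 SE, adjusted p = 0.00342). In the run CG15254, CG15253 and CG11865 the genotypes took different orders. CG15254 stood at 18.2, 16.6 and 12.7 RPKM in Hexa, 4.02, 3.25 and 5.29 in Quad and 2.19, 1.75 and 2.37 in controls. CG11865 stood at 0.178, 0.314 and 0.226 in Hexa, 5.23, 7.74 and 10.3 in Quad and 0.0256, 0.0253 and 0 in controls, so Quad was above Hexa (Hexa minus Quad, log2 difference -4.50, adjusted p = 0.000113). These members of the runs, beyond the CG genes named above, were chosen after their values were seen. CG11865 was not called once the heat shock mean was a covariate.

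CG genes that fell did so by much less, 1.19 to 2.31 log2 units for the 12 largest falls. CG43799 stood at 44.4, 36.8 and 41.2 RPKM in controls and 11.6, 16.3 and 12.7 in Hexa (log2 difference -1.59 ± 0.146 SE, adjusted p = 0.000152). CG42792 stood at 5.36, 7.003 and 6.12 RPKM in controls and 1.39, 1.21 and 1.33 in Hexa (log2 difference -2.15 ± 0.316 SE, adjusted p = 0.00175). CG8773 stood at 47.9, 58.0 and 44.4 RPKM in controls and 25.3, 16.5 and 22.6 in Hexa (log2 difference -1.23 ± 0.17 SE, adjusted p = 0.00124). The groups were separate in all 3 genes, as the choice of the named CG genes required. The largest fall was that of CG10182, at 4.62, 19.7 and 5.84 RPKM in controls and 1.75, 1.46 and 1.47 in Hexa (log2 difference -2.31 ± 0.574 SE, adjusted p = 0.0207), where control 2 was far above the other controls; the call did not hold without Hexa 1 or Hexa 2 (highest adjusted p = 0.055). In 11 of the 12 every Quad library was also below every control, but 4 of the 12 were lower in Hexa than in Quad, where 9.63% of all tested genes were called lower. CG5892 was one of them: it stood at 14.2, 18.2 and 17.5 RPKM in controls and 6.56, 6.46 and 6.39 in Hexa (log2 difference -1.34 ± 0.119 SE, adjusted p = 0.000129) and at 12.7, 14.1 and 14.1 RPKM in Quad (Hexa minus Quad, log2 difference -1.06, adjusted p = 0.000963). CG30480 was another, at 9.38, 7.05 and 9.92 RPKM in Hexa, 13.2, 14.9 and 15.6 in Quad and 18.7, 26.4 and 19.0 in controls (log2 difference -1.27 ± 0.175 SE, adjusted p = 0.00124). CG42792, CG8773, CG10182 and CG30480 were called in the fit described but not with the heat shock covariate.

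A few named genes of secretion and the gut lining stood beside the CG genes at the top. Peritrophin-15a, a chitin-binding protein of the peritrophic matrix that lines the midgut, stood at 4.97, 10.2 and 8.33 RPKM in controls and 166, 118 and 92.9 in Hexa (log2 difference 4.01 ± 0.336 SE, adjusted p = 0.000125). Gnmt, glycine N-methyltransferase, which consumes S-adenosylmethionine, stood at 8.72, 20.6 and 7.57 RPKM in controls and 114, 109 and 69.0 in Hexa (log2 difference 3.09 ± 0.371 SE, adjusted p = 0.000829). The mucin gene Muc30E stood at 1.07, 0.397 and 0.334 RPKM in controls and 7.94, 4.42 and 8.28 in Hexa (log2 difference 3.41 ± 0.394 SE, adjusted p = 0.000577), and its longest annotated transcript has 5253 bases. Nplp4, a neuropeptide-like precursor, stood at 1.71, 6.27 and 1.93 RPKM in controls and 125, 126 and 56.2 in Hexa (log2 difference 5.07 ± 0.752 SE, adjusted p = 0.00252). Hexa libraries lay above all controls in each of these 4 genes, which was a criterion of their choice. Among named genes that fell, Plp, a pericentrin-like protein of the centrosome, stood at 21.7, 29.1 and 20.3 RPKM in controls and 12.3, 9.11 and 17.1 in Hexa (log2 difference -0.91 ± 0.217 SE, adjusted p = 0.0159). Root, the rootletin of ciliary rootlets, stood at 8.71, 9.60 and 8.02 RPKM in controls and 4.98, 4.23 and 5.51 in Hexa (log2 difference -0.83 ± 0.133 SE, adjusted p = 0.00278). Npc1b, needed for sterol uptake in the midgut, stood at 9.42, 12.1 and 8.26 RPKM in controls and 5.54, 4.31 and 5.38 in Hexa (log2 difference -0.94 ± 0.17 SE, adjusted p = 0.0049). PAPLA1, a phospholipase, stood at 30.1, 38.8 and 28.4 RPKM in controls and 16.1, 14.0 and 18.6 in Hexa (log2 difference -0.99 ± 0.153 SE, adjusted p = 0.00223). Groups without overlap were a criterion in the choice of these 4 genes too. All 4 calls were kept with the length trend subtracted, with log2 differences of -0.62, -0.55, -0.73 and -0.71. In edgeR's fit of the deposited counts PAPLA1 was higher (log2 difference 1.96, adjusted p = 0.0301). Plp, Root, Npc1b and PAPLA1 did not pass with the heat shock covariate.

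**Figure D3:**
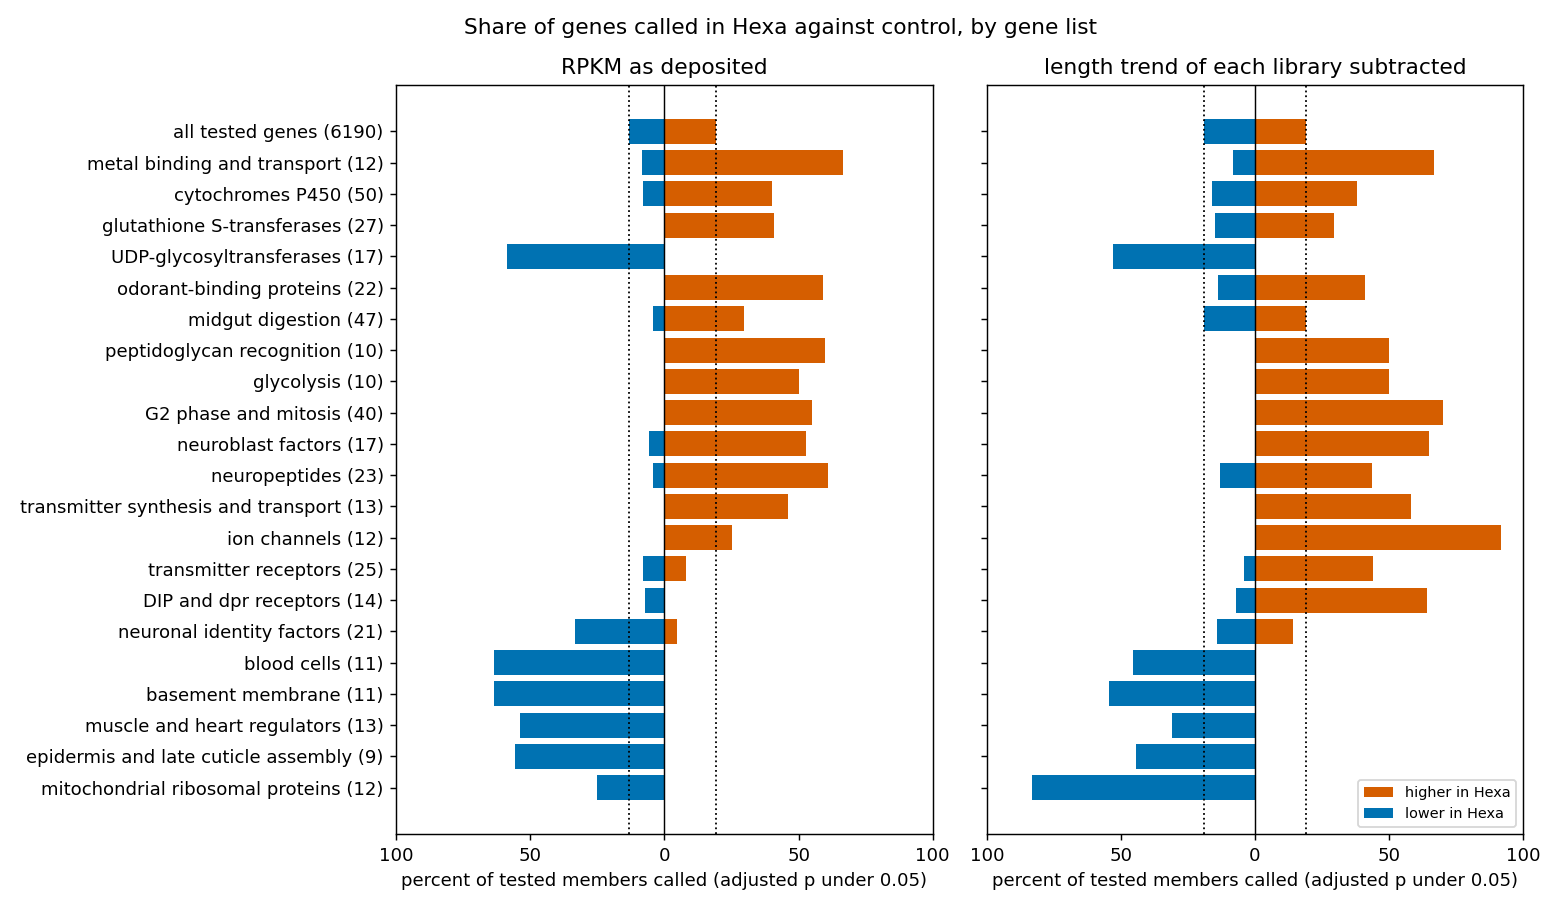
Share of the tested members of 21 gene lists and of all tested genes called higher (to the right) or lower (to the left) in Hexa, in percent; the number tested is in brackets and dotted lines mark the share over all tested genes. The left panel uses RPKM as deposited and the right panel the values with the length trend subtracted; odorant-binding and metal genes lean to the right in both panels, and UDP-glycosyltransferases to the left in both.

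Detoxification enzymes divided by family in the fit described. Cytochromes P450 oxidise hormones and foreign compounds, glutathione S-transferases conjugate the products, and UDP-glycosyltransferases add sugars to them. Of 50 tested P450 genes 20 rose and 4 fell (median log2 difference 0.45; with the length trend subtracted 19 higher and 8 lower). Cyp4p2 stood at 4.27, 5.87 and 4.83 RPKM in controls and 24.8, 21.8 and 22.7 in Hexa (log2 difference 2.20 ± 0.145 SE, adjusted p = 2.68e-05), and at 24.3, 18.9 and 21.2 RPKM in Quad. Cyp12a4, a mitochondrial P450, stood at 6.36, 10.3 and 8.36 RPKM in controls and 44.9, 31.1 and 25.7 in Hexa (log2 difference 2.00 ± 0.227 SE, adjusted p = 0.000473) and at 10.03, 12.4 and 10.7 in Quad. Cyp6a2, known from insecticide metabolism, stood at 0.461, 1.05 and 0.648 RPKM in controls and 6.19, 3.76 and 4.12 in Hexa (log2 difference 2.58 ± 0.274 SE, adjusted p = 0.000325). No Hexa library of these 3 genes overlapped a control. The difference between Hexa and Quad did not pass for Cyp4p2 (log2 difference 0.11, adjusted p = 0.584) and passed for Cyp12a4 (log2 difference 1.58, adjusted p = 0.00303). Cyp6t1 went the other way, at 2.15, 1.27 and 2.09 RPKM in controls and 0.338, 0.229 and 0.342 in Hexa (log2 difference -2.24 ± 0.273 SE, adjusted p = 0.000656) and at 0.532, 0.372 and 0.425 in Quad.

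Of 27 tested glutathione S-transferase genes 11 rose (median 0.35; with the length trend subtracted 8 higher and 4 lower); the count of rises was 6 with Hexa 1 alone and 7 by edgeR or by DESeq2. GstD1, the most abundant of the GstD cluster in controls, stood at 122, 152 and 144 RPKM in controls and 582, 592 and 465 in Hexa (log2 difference 1.97 ± 0.137 SE, adjusted p = 3.19e-05). GstD8 stood at 4.36, 4.42 and 4.57 RPKM in controls and 21.3, 14.1 and 12.6 in Hexa (log2 difference 1.79 ± 0.194 SE, adjusted p = 0.000375). GstD7 rose in Hexa (log2 difference 2.87 ± 0.307 SE, adjusted p = 0.00041) but was lower there than in Quad, at 28.8, 49.2 and 27.0 RPKM beside 219, 263 and 355 (Hexa minus Quad, log2 difference -3.02, adjusted p = 0.000742). By contrast 10 of 17 UDP-glycosyltransferase genes fell and 0 rose. Their median was -0.44, and -0.35 with Hexa 1 as the only Hexa library. With the length trend subtracted 0 were higher and 9 lower. The count of falls was 1 with the heat shock covariate and 5 without control 1. That of rises was 2 with the heat shock covariate and 1 without control 2, without Hexa 3 or by DESeq2, so the contrast was not seen with the covariate. Ugt36Ba (now named Ugt37C2) stood at 33.9, 34.5 and 33.5 RPKM in controls and 16.1, 15.5 and 16.7 in Hexa (log2 difference -1.07 ± 0.0929 SE, adjusted p = 0.000109). Ugt37b1 stood at 29.7, 27.3 and 27.1 RPKM in controls and 19.6, 20.5 and 20.02 in Hexa (log2 difference -0.48 ± 0.0914 SE, adjusted p = 0.00614). Ugt36Bc stood at 49.2, 43.0 and 53.9 RPKM in controls and 32.7, 29.3 and 32.8 in Hexa (log2 difference -0.62 ± 0.135 SE, adjusted p = 0.0109). All 3 had separate groups with little spread among replicates. Ugt37b1 and Ugt36Bc were not called once the heat shock mean was a covariate.

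Among 12 tested carboxylesterase and juvenile hormone genes 4 rose and 3 fell; the count of rises was 2 by edgeR or by DESeq2, and that of falls 1 without control 1, with the heat shock covariate or with Hexa 1 alone. Jheh2, an epoxide hydrolase that degrades juvenile hormone, stood at 7.23, 7.50 and 7.83 RPKM in controls and 22.7, 16.3 and 16.7 in Hexa (log2 difference 1.28 ± 0.137 SE, adjusted p = 0.000347). The methyltransferase jhamt, which acts late in juvenile hormone synthesis, stood at 1.17, 1.56 and 1.32 RPKM in controls and 3.55, 2.54 and 2.08 in Hexa (log2 difference 0.93 ± 0.206 SE, adjusted p = 0.0116). The esterase alpha-Est4 stood at 14.7, 11.6 and 14.5 RPKM in controls and 6.38, 5.54 and 6.85 in Hexa (log2 difference -1.11 ± 0.136 SE, adjusted p = 0.000682), so Jheh2 and jhamt were higher in every Hexa library and alpha-Est4 lower in every one.

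Most metal-handling genes rose. Of 12 tested members 8 rose and 1 fell (median 1.69; with the length trend subtracted 8 higher and 1 lower), and the rises numbered 7 or 8 whichever library was left out, 4 by DESeq2 and 5 by edgeR. The metallothioneins, small cysteine-rich proteins that bind copper and cadmium, rose in all 5 tested genes, MtnA to MtnE. MtnA, the most abundant, stood at 554, 463 and 642 RPKM in controls and 1899, 2444 and 1571 in Hexa (log2 difference 1.82 ± 0.183 SE, adjusted p = 0.000256). MtnD stood at 6.46, 23.4 and 16.1 RPKM in controls and 78.6, 82.6 and 57.4 in Hexa (log2 difference 2.41 ± 0.424 SE, adjusted p = 0.00542). MtnC stood at 0.568, 0.802 and 0.376 RPKM in controls and 7.83, 10.4 and 4.51 in Hexa (log2 difference 3.46 ± 0.354 SE, adjusted p = 0.000285). ZnT35C, a zinc exporter, stood at 8.19, 6.14 and 7.51 RPKM in controls and 41.7, 35.9 and 45.8 in Hexa (log2 difference 2.49 ± 0.139 SE, adjusted p = 7.19e-06) and at 37.5, 32.9 and 35.5 RPKM in Quad. The copper importer Ctr1A was the 1 member called lower, at 40.95, 40.9 and 36.0 RPKM in controls and 27.8, 27.5 and 31.7 in Hexa (log2 difference -0.44 ± 0.108 SE, adjusted p = 0.0181), a call lost without control 1 or Hexa 1 (highest adjusted p = 0.0658). Ctr1A was called in the fit described but not with the heat shock covariate.

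**Figure D4:**
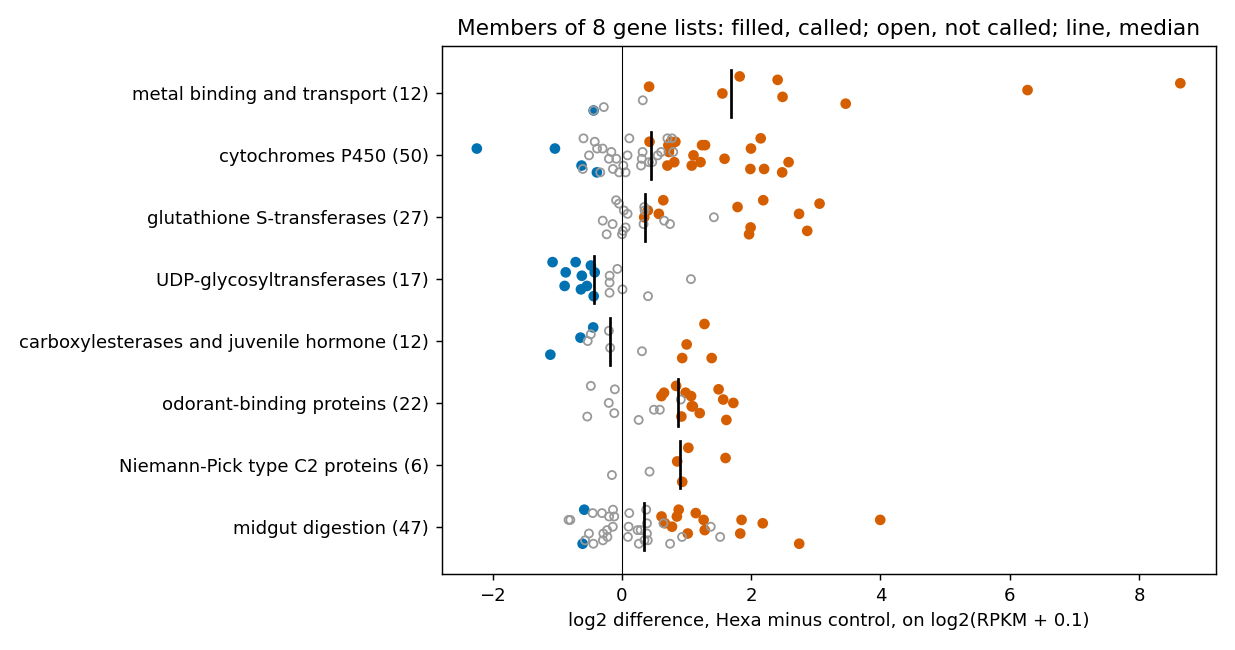
Log2 difference, Hexa minus control, of each tested member of 8 gene lists (horizontal axis); filled points were called (orange higher, blue lower), open points were not, and the vertical line is the list's median. The UDP-glycosyltransferase points called lie below 0, and those of the metal, glutathione S-transferase, odorant-binding and Niemann-Pick lists lie mostly above it.

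Immune recognition and antimicrobial peptide genes changed, while no tested member of the Imd pathway passed. Peptidoglycan recognition proteins and GNBPs sense microbes, the Toll and Imd pathways carry the signal, and antimicrobial peptides are among its targets. The Toll pathway list, with 5 tested genes, is not described here. Of 10 tested recognition genes 6 rose (with the length trend subtracted 5 higher and 0 lower); the count was 3 without Hexa 1, with the heat shock covariate or with Hexa 1 alone. GNBP3, a sensor of fungal glucan, stood at 1.63, 3.06 and 1.77 RPKM in controls and 8.63, 7.13 and 5.66 in Hexa (log2 difference 1.72 ± 0.246 SE, adjusted p = 0.00149). PGRP-SB1, a secreted amidase, stood at 0.994, 0.397 and 0.592 RPKM in controls and 2.01, 3.05 and 1.90 in Hexa (log2 difference 1.72 ± 0.348 SE, adjusted p = 0.0081). Of 18 tested antimicrobial peptide genes 6 rose and 2 fell; the count of rises was 3 by edgeR or by DESeq2, and that of falls 0 without control 1, control 3, Hexa 1 or Hexa 3, with the heat shock covariate or by edgeR and 1 without control 2, with Hexa 1 alone or by DESeq2. The attacin gene AttB stood at 0.976, 0.892 and 0.356 RPKM in controls and 26.4, 14.3 and 18.1 in Hexa (log2 difference 4.60 ± 0.523 SE, adjusted p = 0.000645). Drosocin, Dro, stood at 0.144, 0.267 and 0.0463 RPKM in controls and 3.47, 2.21 and 1.56 in Hexa (log2 difference 3.34 ± 0.545 SE, adjusted p = 0.00301). Drsl6, a drosomycin-like gene, stood at 17.5, 21.3 and 10.1 RPKM in Hexa, 31.4, 37.9 and 59.6 in Quad and 0.0561, 0.0555 and 0.116 in controls. PGRP-SB1 did not pass with the heat shock covariate.

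In the Imd pathway limma called 0 of 8 tested members, with 1 higher and 2 lower at an unadjusted p under 0.05, 0 called by edgeR and 1 called lower by DESeq2; leaving out single libraries called 1 higher (control 2, control 3 or Hexa 3) or 1 lower (control 3, Hexa 1 or Hexa 3). The NF-kB factor Rel stood at 20.7, 34.6 and 19.1 RPKM in controls and 35.3, 25.1 and 27.6 in Hexa, with overlapping groups (log2 difference 0.28 ± 0.217 SE, adjusted p = 0.306). Of 14 melanization and clotting genes 4 rose and 5 fell; the count of rises was 2 by edgeR or by DESeq2, and that of falls 2 without control 1, Hexa 1 or Hexa 2, with the heat shock covariate or with Hexa 1 alone. PPO1, the prophenoloxidase of crystal cells, stood at 69.8, 56.4 and 65.5 RPKM in controls and 31.5, 35.5 and 49.6 in Hexa (log2 difference -0.74 ± 0.165 SE, adjusted p = 0.0123). lectin-37Da stood at 0.961, 0.917 and 1.72 RPKM in controls and 7.75, 4.68 and 4.35 in Hexa (log2 difference 2.14 ± 0.4 SE, adjusted p = 0.0059).

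Some genes of digestive and carrier proteins rose, most of these lists with fewer rises once the length trend was subtracted. Of 47 tested midgut digestion genes 14 rose (29.8%) and 2 fell (4.26%), beside 19.1% and 13.1% of all tested genes (list median 0.35). Their longest transcripts are short, with a median of 947 bases. With the length trend subtracted 9 higher and 9 lower passed, shares like those of all tested genes (18.9% and 19.1%). The count of rises was 6 without control 1 or Hexa 1 or by edgeR, 7 without control 3 and 8 without Hexa 2 or with Hexa 1 alone, and that of falls 0 with the heat shock covariate, 1 without control 1, control 2, Hexa 1 or Hexa 3 and 5 without Hexa 2. Jon74E, a Jonah serine protease, stood at 0.518, 1.81 and 0.648 RPKM in controls and 23.4, 12.2 and 12.3 in Hexa (log2 difference 3.996 ± 0.439 SE, adjusted p = 0.000471). lambdaTry, a trypsin, stood at 44.4, 42.4 and 49.5 RPKM in controls and 138, 106 and 91.7 in Hexa (log2 difference 1.28 ± 0.163 SE, adjusted p = 0.00082). The amylase gene Amy-d stood at 2.13, 4.28 and 2.19 RPKM in controls and 30.5, 12.1 and 17.9 in Hexa (log2 difference 2.74 ± 0.351 SE, adjusted p = 0.001), and its near-identical copy Amy-p can share its reads. Hexa 1 was the highest library for all 3. GATAe, the transcription factor that maintains the midgut programme, was called lower, at 44.3, 38.4 and 43.3 RPKM in controls and 26.9, 24.6 and 33.1 in Hexa (log2 difference -0.58 ± 0.134 SE, adjusted p = 0.0136), a call lost without control 1 (highest adjusted p = 0.0514). GATAe was not called once the heat shock mean was a covariate.

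Odorant-binding proteins, small carriers that also occur outside sense organs, rose in 13 of 22 tested genes (median 0.88; with the length trend subtracted 9 higher and 3 lower); the count was 6 by edgeR, 7 with the heat shock covariate or by DESeq2 and 8 with Hexa 1 alone. Obp28a stood at 39.2, 42.6 and 51.6 RPKM in controls and 99.9, 116 and 69.4 in Hexa (log2 difference 1.07 ± 0.195 SE, adjusted p = 0.00507). Obp56a stood at 11.2, 11.2 and 10.2 RPKM in controls and 32.9, 37.4 and 23.8 in Hexa (log2 difference 1.496 ± 0.276 SE, adjusted p = 0.00562). Obp49a stood at 5.21, 8.65 and 7.33 RPKM in controls and 17.2, 17.8 and 13.5 in Hexa (log2 difference 1.20 ± 0.204 SE, adjusted p = 0.00364). Each of the 3 was higher in every Hexa library. Of 6 Niemann-Pick type C2 genes, which encode sterol-binding proteins, 4 rose (with the length trend subtracted 2 higher and 1 lower); the count was 0 with the heat shock covariate, 1 without control 1 or Hexa 1 or with Hexa 1 alone and 2 without Hexa 2 or by edgeR. Npc2a stood at 71.4, 49.6 and 85.0 RPKM in controls and 129, 154 and 106 in Hexa (log2 difference 0.93 ± 0.206 SE, adjusted p = 0.0116). The salivary gland list had 3 rises among 8 tested genes, and all were new glue genes; ng1 stood at 0.0415, 0 and 0 RPKM in controls and 4.68, 5.37 and 2.68 in Hexa (adjusted p = 3.23e-05), while ng2 was listed at 0 in every control and stood at 1.91, 2.65 and 1.12 RPKM in Hexa (adjusted p = 0.000474). Obp28a and Npc2a were called in the fit described but not with the heat shock covariate.

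Among genes known from the nervous system, several of the neuroblast rose and some factors of neuronal identity fell, in counts that depended on the setting. The neuroblast list holds wor, ase and SoxN, which the transgenes themselves drive, so their part in its counts shows the manipulation. SoxN is counted only among the rises with the length trend subtracted. Apart from wor and ase, the list members called higher were dpn, mira, nerfin-1, insb, pdm2, D and danr. Of 17 tested neuroblast factors 9 rose, wor and ase among them, and 1 fell (median 0.32; with the length trend subtracted 11 higher and 0 lower); the count of rises was 3 with the heat shock covariate or by edgeR and 4 with Hexa 1 alone or by DESeq2. The fall was that of svp, a nuclear receptor that follows hb in neuroblasts, at 16.0, 18.1 and 15.6 RPKM in controls and 12.7, 9.77 and 14.3 in Hexa (log2 difference -0.44 ± 0.15 SE, adjusted p = 0.0487), named after its values were seen; the call was lost without control 1, control 2, control 3, Hexa 1 or Hexa 2 (highest adjusted p = 0.112). pdm2, the paralogue of nub, which is not in the transgene set, stood at 6.87, 7.73 and 7.21 RPKM in controls and 17.3, 10.3 and 14.6 in Hexa (log2 difference 0.91 ± 0.175 SE, adjusted p = 0.00626). mira, the adaptor that carries fate determinants in dividing neuroblasts, stood at 14.2, 10.2 and 12.4 RPKM in controls and 19.2, 17.7 and 21.0 in Hexa (log2 difference 0.66 ± 0.14 SE, adjusted p = 0.0101). Hexa 1 was the highest library for pdm2, and both genes had separate groups. In the deposited counts pdm2 had the opposite sign (edgeR, log2 difference -0.62, adjusted p = 0.411). The neural repressor insb stood at 3.91, 2.28 and 3.60 RPKM in controls and 7.54, 7.67 and 8.33 in Hexa (log2 difference 1.27 ± 0.215 SE, adjusted p = 0.00356). svp, mira and insb did not pass with the heat shock covariate.

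Of 21 tested neuronal identity factors 7 fell and 1 rose, and the count of rises was 2 without control 2 and that of falls 1 with the heat shock covariate and 4 with Hexa 1 alone. After subtraction of the length trend 3 higher and 3 lower passed, and the median moved from -0.03 to 0.15. exex, a homeobox factor of motor neurons, stood at 14.3, 15.9 and 12.4 RPKM in controls and 9.57, 8.76 and 10.4 in Hexa (log2 difference -0.56 ± 0.123 SE, adjusted p = 0.0113), and this call was kept with the trend subtracted (log2 difference -0.51, adjusted p = 0.005). The nuclear factor dac stood at 10.2, 10.97 and 10.3 RPKM in controls and 6.88, 6.46 and 8.39 in Hexa (log2 difference -0.53 ± 0.119 SE, adjusted p = 0.012). The RNA-binding protein Syp, known from late neuroblasts, stood at 2.76, 2.75 and 3.06 RPKM in controls and 1.77, 1.63 and 1.82 in Hexa (log2 difference -0.69 ± 0.138 SE, adjusted p = 0.00805). With the trend subtracted neither passed (adjusted p = 0.0515 for dac and 0.115 for Syp). The 1 rise was the forkhead gene fd59A, at 2.50, 2.41 and 2.89 RPKM in controls and 5.92, 4.23 and 4.796 in Hexa (log2 difference 0.90 ± 0.152 SE, adjusted p = 0.00349), and at 3.63, 3.57 and 3.67 RPKM in Quad. exex, dac and Syp were not called once the heat shock mean was a covariate.

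Counts for genes of mature neurons moved with the length trend. Of 12 tested ion channel genes 3 rose, and with the trend subtracted 11 higher and 0 lower passed. The inward rectifier potassium channel Irk2 stood at 18.3, 26.2 and 25.0 RPKM in controls and 61.0, 54.2 and 48.1 in Hexa (log2 difference 1.24 ± 0.152 SE, adjusted p = 0.000669). Irk3 stood at 12.2, 12.1 and 11.7 RPKM in controls and 21.6, 20.1 and 19.4 in Hexa (log2 difference 0.76 ± 0.0948 SE, adjusted p = 0.000761). Every Hexa library lay above every control for both, and Irk2 stood at 24.9, 26.8 and 26.6 RPKM in Quad (Hexa minus Quad, log2 difference 1.05, adjusted p = 0.00303). The voltage-gated sodium channel para stood at 10.5, 20.9 and 12.6 RPKM in controls and 17.7, 20.5 and 15.3 in Hexa, with overlapping groups (adjusted p = 0.251, and 0.0383 with the trend subtracted). The count of ion channel rises was 7 without control 2.

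Of 25 tested transmitter receptors 2 rose and 2 fell, and with the length trend subtracted 11 higher and 1 lower passed (median 0.13 before and 0.35 after). The count of rises was 0 without control 1, control 3, Hexa 1 or Hexa 2, with the heat shock covariate or with Hexa 1 alone, 4 without Hexa 3 and 8 without control 2, and that of falls 0 without control 1, Hexa 1 or Hexa 2 or with the heat shock covariate and 1 without control 2 or control 3, with Hexa 1 alone, by edgeR or by DESeq2. The nicotinic receptor subunit nAChRalpha3 stood at 1.79, 2.46 and 2.03 RPKM in controls and 3.16, 3.61 and 2.65 in Hexa (log2 difference 0.56 ± 0.17 SE, adjusted p = 0.0347), a call lost without control 1, control 3, Hexa 1 or Hexa 2 (highest adjusted p = 0.106). GluRIIE, a glutamate receptor subunit of muscle, stood at 17.9, 19.3 and 16.4 RPKM in controls and 13.4, 11.9 and 14.1 in Hexa (log2 difference -0.45 ± 0.117 SE, adjusted p = 0.0223), a call lost without control 1, Hexa 1 or Hexa 2 (highest adjusted p = 0.065); it was the 1 receptor that also fell with the trend subtracted. The GABA receptor Rdl stood at 29.4, 48.7 and 36.0 RPKM in controls and 53.9, 65.0 and 44.0 in Hexa, and passed with the trend subtracted only (log2 difference 0.82, adjusted p = 0.0245). In both Rdl and para control 2 was the highest control and overlapped Hexa. nAChRalpha3 and GluRIIE were called in the fit described but not with the heat shock covariate.

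Among 14 tested DIP and dpr genes, cell surface partners in synaptic matching, 1 fell, DIP-delta, a call lost without control 1, control 2, Hexa 1 or Hexa 2 (highest adjusted p = 0.0758). With the length trend subtracted 9 higher and 1 lower passed; without control 2, 5 rose in the deposited values. dpr4 stood at 6.60, 8.47 and 6.15 RPKM in controls and 11.1, 8.09 and 8.78 in Hexa, with overlapping groups (log2 difference 0.39 ± 0.162 SE, adjusted p = 0.0828; log2 difference 0.54, adjusted p = 0.0164 with the trend subtracted). Of 14 axon guidance genes 3 fell; the count was 0 without control 1, Hexa 1 or Hexa 2 or with the heat shock covariate and 1 without control 2, with Hexa 1 alone or by edgeR. With the trend subtracted 1 higher and 4 lower passed. DIP-delta did not pass with the heat shock covariate.

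**Figure D5:**
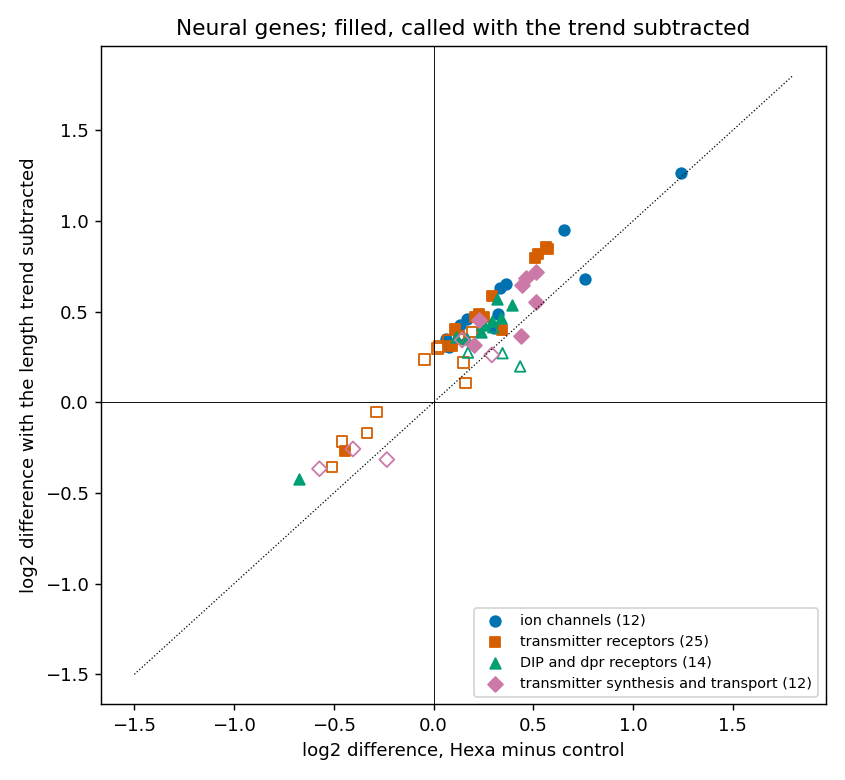
Log2 difference, Hexa minus control, of tested members of 4 neural gene lists, as deposited (horizontal axis) and with the length trend of each library subtracted (vertical axis); filled symbols were called on the vertical axis and the dotted line marks equal values. Most points lie above the dotted line, and the ion channels, transmitter receptors and DIP and dpr genes called there number 11, 11 higher with 1 lower, and 9 higher with 1 lower.

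Transmitter synthesis and transport genes rose in 6 of 13 tested cases, and with the length trend subtracted 7 higher and 0 lower of 12 passed; the count of rises was 1 with the heat shock covariate, with Hexa 1 alone or by edgeR, 2 without Hexa 1 or Hexa 2 or by DESeq2 and 3 without control 1 or control 3. Tdc2, which makes tyramine in neurons, stood at 4.92, 4.53 and 4.88 RPKM in controls and 6.98, 7.15 and 6.48 in Hexa (log2 difference 0.52 ± 0.12 SE, adjusted p = 0.0145). ChAT, which makes acetylcholine, stood at 7.65, 9.86 and 8.31 RPKM in controls and 12.1, 13.9 and 9.91 in Hexa (log2 difference 0.47 ± 0.148 SE, adjusted p = 0.0406), a call lost without control 1, control 3, Hexa 1 or Hexa 2 (highest adjusted p = 0.118). An entry spelled Trh also rose, but the RefSeq gene table gives that spelling to more than 1 gene, so it is not described. Of 23 tested neuropeptide genes 14 rose and 1 fell (with the length trend subtracted 10 higher and 3 lower), and the count of rises was 4 by edgeR, 5 with the heat shock covariate, 6 by DESeq2, 7 without Hexa 1, 8 without control 1 or with Hexa 1 alone and 9 without control 3. natalisin stood at 1.23, 1.24 and 1.21 RPKM in controls and 2.75, 2.89 and 2.29 in Hexa (log2 difference 1.04 ± 0.157 SE, adjusted p = 0.00201). The tachykinin gene Tk stood at 2.90, 3.75 and 4.46 RPKM in controls and 6.45, 6.85 and 5.58 in Hexa (log2 difference 0.76 ± 0.169 SE, adjusted p = 0.0118). Both peptides were higher in all 3 Hexa libraries. Tdc2, ChAT and Tk were not called once the heat shock mean was a covariate.

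Genes of G2 phase and mitosis were called higher in a number that depended on the setting and was lowest with the heat shock covariate. Of 40 tested genes of G2 phase and mitosis 22 rose (median 0.63); the count was 2 with the heat shock covariate, 7 with Hexa 1 alone, 11 by edgeR, 13 without Hexa 1 and 14 by DESeq2. After subtraction of the length trend 28 rose. pav, a kinesin of cytokinesis, stood at 1.59, 1.42 and 1.31 RPKM in controls and 3.16, 2.34 and 3.35 in Hexa (log2 difference 0.97 ± 0.17 SE, adjusted p = 0.00423). Cdk1, the mitotic kinase, stood at 7.70, 5.55 and 6.24 RPKM in controls and 9.68, 12.6 and 10.8 in Hexa (log2 difference 0.76 ± 0.148 SE, adjusted p = 0.00669). aurB, the kinase of the chromosomal passenger complex, stood at 2.48, 1.89 and 2.52 RPKM in controls and 5.36, 7.45 and 5.34 in Hexa (log2 difference 1.35 ± 0.191 SE, adjusted p = 0.00138). For all 3 genes every Hexa library lay above every control. pav and Cdk1 were called in the fit described but not with the heat shock covariate.

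Genes of the basement membrane, blood cells and muscle fell in the fit described. Hardly any of these calls passed with the heat shock covariate, which ran with the genotype. Of 11 tested basement membrane genes 7 fell (median -0.70), between 6 and 8 whichever library was left out, but 0 with the heat shock covariate, 2 by edgeR and 3 by DESeq2, and with the length trend subtracted 6 fell (median -0.41). LanB1 and LanB2 encode the laminin beta and gamma chains. LanB1 stood at 128, 135 and 120.3 RPKM in controls and 80.4, 64.1 and 94.2 in Hexa (log2 difference -0.70 ± 0.148 SE, adjusted p = 0.00986). LanB2 stood at 142, 147 and 129 RPKM in controls and 87.4, 61.6 and 105 in Hexa (log2 difference -0.75 ± 0.179 SE, adjusted p = 0.0161). Ppn, papilin, stood at 148, 172 and 137 RPKM in controls and 87.2, 67.2 and 101 in Hexa (log2 difference -0.85 ± 0.168 SE, adjusted p = 0.00734) and at 166, 145 and 180.1 RPKM in Quad. Hexa 2 was the lowest library for all 3, and the groups did not overlap. The collagen IV chains Col4a1 and vkg did not pass, at log2 differences of -0.35 (adjusted p = 0.105) and -0.42 (adjusted p = 0.0592). LanB1, LanB2 and Ppn did not pass with the heat shock covariate.

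Of 11 tested blood cell genes 7 fell, between 5 and 7 whichever library was left out, but 1 with the heat shock covariate or by edgeR and 2 with Hexa 1 alone or by DESeq2, and 5 fell with the length trend subtracted. Pxn and Ppn stand in this list and in the basement membrane list. NimC4, a receptor for the uptake of dying cells, stood at 28.0, 21.6 and 26.7 RPKM in controls and 11.7, 13.6 and 17.0 in Hexa (log2 difference -0.85 ± 0.172 SE, adjusted p = 0.00802). srp, the GATA factor of blood cells, stood at 19.8, 24.1 and 23.5 RPKM in controls and 16.8, 13.7 and 16.6 in Hexa (log2 difference -0.51 ± 0.124 SE, adjusted p = 0.0168). NimC4 has a short transcript of 1282 bases and its fall was larger with the trend subtracted (-1.06 log2 units). Of 13 muscle and heart regulators 7 fell; the count was 0 with the heat shock covariate, 1 without control 1 or Hexa 1 or with Hexa 1 alone, 2 without control 3 or Hexa 2, 3 by edgeR or by DESeq2 and 4 without control 2, and 4 with the length trend subtracted. how, an RNA-binding protein of muscle and tendon cells, stood at 140.4, 175 and 125 RPKM in controls and 81.7, 51.8 and 104 in Hexa (log2 difference -0.93 ± 0.234 SE, adjusted p = 0.0192). Of 12 sarcomere genes 3 fell (median -0.33, and -0.30 with Hexa 1 as the only Hexa library). The count was 0 with the heat shock covariate, 1 without control 2, Hexa 1, Hexa 2 or Hexa 3 and 6 by edgeR or by DESeq2. With the length trend subtracted 2 of the 12 fell, a share near the 19.1% of all tested genes. In that setting 0 of the 3 calls were kept. The actin gene Act57B stood at 8331, 7757 and 7705 RPKM in controls and 7115, 7471 and 6659.7 in Hexa and did not pass (adjusted p = 0.282). srp and how were not called once the heat shock mean was a covariate.

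Several epidermal and tracheal genes that shape the cuticle fell, in counts that rested on single libraries. Of 9 tested genes of epidermis and late cuticle assembly 5 fell; the count was 0 without control 1 or Hexa 1 or with the heat shock covariate, 2 without Hexa 2 or by edgeR, 3 without control 2 or control 3 and 8 without Hexa 3. Of 6 tracheal genes 4 fell; the count was 0 without control 1 or Hexa 1 or with the heat shock covariate and 2 without Hexa 2 or with Hexa 1 alone. With the length trend subtracted 4 and 4 fell. knk, which organises chitin and stands in both lists, was at 23.9, 22.8 and 23.4 RPKM in controls and 14.1, 11.02 and 18.8 in Hexa (log2 difference -0.71 ± 0.174 SE, adjusted p = 0.0179), a call lost without control 1 or Hexa 1 (highest adjusted p = 0.0541). The chitin deacetylase serp, in both lists too, was at 381, 353 and 327 RPKM in controls and 238, 278 and 277 in Hexa (log2 difference -0.42 ± 0.117 SE, adjusted p = 0.027), a call lost without control 1 or Hexa 1 (highest adjusted p = 0.0938). In both genes every Hexa library lay below every control. knk and serp were called in the fit described but not with the heat shock covariate.

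Of 49 tested structural cuticle genes of the Cpr family 8 rose (16.3%) and 2 fell (4.08%). Both shares were below those of all tested genes (19.1% and 13.1%). The count of rises was 3 with the heat shock covariate, 4 without control 1, Hexa 1 or Hexa 2 and 5 with Hexa 1 alone or by edgeR, and that of falls 0 with the heat shock covariate, 1 without control 1 or control 3, by edgeR or by DESeq2, 4 with Hexa 1 alone and 10 without Hexa 2. After subtraction of the length trend 5 higher and 17 lower passed, and the median moved from -0.14 to -0.47. Cpr67B stood at 19.2, 53.5 and 27.7 RPKM in controls and 132, 133 and 99.2 in Hexa (log2 difference 1.97 ± 0.343 SE, adjusted p = 0.00478). Cpr92F stood at 73.3, 81.9 and 64.1 RPKM in controls and 54.4, 52.8 and 45.5 in Hexa (log2 difference -0.52 ± 0.121 SE, adjusted p = 0.0147). Of 11 Tweedle genes 2 rose and 3 fell, and the count of rises was 0 without control 1, Hexa 1 or Hexa 2, with the heat shock covariate or by edgeR and 1 without control 3 or with Hexa 1 alone and that of falls 5 without Hexa 2. TwdlY, the neighbour of goe and TwdlX in 1 of the 2 falling runs, stood at 599, 460.3 and 538 RPKM in controls and 249, 308 and 221 in Hexa (log2 difference -1.04 ± 0.189 SE, adjusted p = 0.005). Of 12 Osiris genes, expressed when the cuticle is laid down, limma called 0, with 2 lower at an unadjusted p under 0.05 and 0 called by edgeR or DESeq2; the count called lower was 1 without Hexa 3 and 3 without control 2. Cpr92F did not pass with the heat shock covariate.

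The genes of ecdysone, the moulting hormone, held 4 falls and 2 rises among 18 tested; the count of falls was 0 with the heat shock covariate, 1 by edgeR and 2 without Hexa 1 or Hexa 2, with Hexa 1 alone or by DESeq2 and that of rises 0 with Hexa 1 alone, by edgeR or by DESeq2 and 1 without control 1, Hexa 1 or Hexa 3 or with the heat shock covariate. With the length trend subtracted 1 higher and 5 lower of 17 passed. ftz-f1, a nuclear receptor of the response, stood at 137, 173 and 131 RPKM in controls and 80.8, 69.1 and 102 in Hexa (log2 difference -0.81 ± 0.165 SE, adjusted p = 0.0082), and at 154, 137 and 144 RPKM in Quad. The hormone receptor EcR stood at 13.5, 19.4 and 14.1 RPKM in controls and 9.52, 7.41 and 12.4 in Hexa (log2 difference -0.68 ± 0.199 SE, adjusted p = 0.0312), a call lost without control 2, Hexa 1 or Hexa 2 (highest adjusted p = 0.0814). Both were lower in every Hexa library than in any control or Quad library. In the deposited counts EcR had the opposite sign (edgeR, log2 difference 0.21, adjusted p = 0.473). ftz-f1 and EcR were not called once the heat shock mean was a covariate.

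Central metabolism showed small changes. Of 10 tested glycolytic genes 5 rose (median 0.45; with the length trend subtracted 5 rose); the count was 1 by edgeR or by DESeq2, 2 without Hexa 1, 3 without control 1 or Hexa 2, with the heat shock covariate or with Hexa 1 alone and 9 without Hexa 3. PyK, pyruvate kinase, stood at 106, 117 and 112 RPKM in controls and 217, 210.0 and 163 in Hexa (log2 difference 0.81 ± 0.129 SE, adjusted p = 0.00271). Eno, enolase, stood at 172, 188 and 191 RPKM in controls and 302, 282 and 234 in Hexa (log2 difference 0.56 ± 0.124 SE, adjusted p = 0.0113). Both enzymes were higher in every Hexa library, and lowest among them in Hexa 3. In the deposited counts PyK had the opposite sign (edgeR, log2 difference -0.11, adjusted p = 0.786). Of 12 tested mitochondrial ribosomal protein genes 3 fell (median -0.14); the count was 1 without control 1 or Hexa 2, with the heat shock covariate or with Hexa 1 alone. After subtraction of the length trend 10 fell (median -0.38). mRpS11, of the small subunit, stood at 64.9, 59.5 and 63.7 RPKM in controls and 37.01, 41.9 and 35.8 in Hexa (log2 difference -0.71 ± 0.102 SE, adjusted p = 0.00149).

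Signalling lists held few calls, and most of these rested on single libraries or settings. Hedgehog signals through the receptor ptc and the transducer smo, with co-receptors of the boi family. Of 6 tested members 3 fell; the count was 0 with the heat shock covariate and 1 without control 1, control 2 or Hexa 2 or by edgeR, and 3 with the length trend subtracted. boi stood at 4.42, 5.28 and 5.43 RPKM in controls and 3.08, 2.03 and 3.56 in Hexa (log2 difference -0.81 ± 0.197 SE, adjusted p = 0.017). smo, which did not pass, stood at 5.24, 6.03 and 5.13 RPKM in controls and 4.20, 4.05 and 4.49 in Hexa (log2 difference -0.36 ± 0.131 SE, adjusted p = 0.0609). Of 10 tested EGF and FGF genes 2 rose, a share near that of all tested genes, and the count was 0 with the heat shock covariate, with Hexa 1 alone, by edgeR or by DESeq2 and 1 without control 1, control 3, Hexa 1 or Hexa 2. The list otherwise leaned to lower values: its median was -0.35, 3 of the 10 were above 0, 5 were lower at an unadjusted p under 0.05, and the number called lower was 1 by edgeR or by DESeq2 and 4 without Hexa 3. The EGF ligand spi stood at 51.6, 50.5 and 48.8 RPKM in controls and 65.6, 71.6 and 68.6 in Hexa (log2 difference 0.45 ± 0.109 SE, adjusted p = 0.0173), with every Hexa library above every control. Of 5 tested Wnt genes 1 fell; the count was 0 without control 1, control 2, control 3, Hexa 1 or Hexa 2, with the heat shock covariate, with Hexa 1 alone, by edgeR or by DESeq2 and 2 without Hexa 3. Of 8 tested BMP and activin genes 2 fell; the count was 0 without control 2 or Hexa 1, with the heat shock covariate, with Hexa 1 alone or by edgeR, 1 without control 1, control 3 or Hexa 2 and 4 without Hexa 3. Of 10 tested genes of insulin and Tor signalling 2 rose and 1 fell; the count of rises was 1 without control 1 or Hexa 1, with the heat shock covariate, with Hexa 1 alone, by edgeR or by DESeq2 and that of falls 0 without control 1, control 3, Hexa 1 or Hexa 2 or with Hexa 1 alone and 2 without control 2. Both shares in the insulin and Tor list were near those of all tested genes. In the Notch list limma called 0 of 6 tested genes, with 1 lower at an unadjusted p under 0.05. There edgeR and DESeq2 called 0, and limma without Hexa 3 called 2 lower. boi and spi were called in the fit described but not with the heat shock covariate.

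A few low genes were near 0 in either controls or Hexa, and the Quad values of most lay on the Hexa side. The odorant receptor gene Or19b stood at 4.26, 4.83 and 3.79 RPKM in controls and 0.117, 0.054 and 0.0291 in Hexa (log2 difference -4.75 ± 0.304 SE, adjusted p = 2.25e-05) and at 0, 0.0204 and 0 RPKM in Quad. Its near-identical neighbour Or19a stood at 1.37, 2.12 and 1.06 RPKM in controls and 0.0259, 0 and 0.0097 in Hexa and at 0.0181, 0.0408 and 0 in Quad, and the 2 genes can share reads. The Turandot stress peptide gene Victoria stood at 1.91, 1.59 and 1.97 RPKM in controls and 0.0578, 0.0602 and 0 in Hexa (log2 difference -3.81 ± 0.352 SE, adjusted p = 0.000157) and at 0, 0.0454 and 0.0434 in Quad. Ir64a, an ionotropic receptor, was listed at 0 in all 3 controls and stood at 0.503, 0.596 and 0.639 RPKM in Hexa and 0.421, 0.712 and 0.798 in Quad (adjusted p = 0.000521). In these genes controls stood on one side and both transgenic genotypes on the other. Transgenes and strain background cannot be told apart here. The chemoreceptor list as a whole had shares called higher and lower near those of all tested genes. Over the chemoreceptor list 3 of 15 tested genes rose and 2 fell, and the count of these rises was 1 with the heat shock covariate, with Hexa 1 alone or by edgeR and that of falls 4 by DESeq2. Over the Turandot list 2 of 5 rose and 1 fell; the count of Turandot rises was 0 with the heat shock covariate or with Hexa 1 alone and 1 without control 1, control 3, Hexa 1, Hexa 2 or Hexa 3. TotB stood at 0.0413, 0 and 0.0425 RPKM in controls and 1.66, 1.73 and 0.623 in Hexa (log2 difference 3.39 ± 0.688 SE, adjusted p = 0.0081) and at 0.662, 0.18 and 0 in Quad. TotB did not pass with the heat shock covariate.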

How the data were processed

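RNA sequencing of whole embryos was deposited as 1 gene table of 10221 entries with, per the file headers, raw counts and the log2 total RPKM of each library; a log2 value of -10.86 stands for 0. The authors' aligner, read counting and genome build are not given in the sources used here, and 9 further columns of values per sample were not used. Log2 RPKM was turned back to RPKM, and 6190 genes with at least 0.5 RPKM in 3 libraries were tested on log2(RPKM + 0.1) with limma 3.58.1 (trend and robust options, R 4.3.3). The 9 libraries entered 1 fit, with Hexa minus control as the contrast, 2-sided tests and Benjamini-Hochberg adjustment over the 6190 genes. The fit was tested on simulated data.

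Nothing in the labels says more of the replicates than that they are separate embryo collections, so the p-values measure the spread between these collections. Transcript lengths and gene order come from BDGP 6.54 (Ensembl 115), which matched 10083 names and 6091 tested genes; the length trend was a lowess curve (span 0.3) per library.

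The members and gene lists were chosen with earlier results of these data known, so lists are described by their counts and not tested. Named CG genes were the 12 largest rises and the 12 largest falls among called genes without overlap of groups and with a mean of at least 5 RPKM in the higher group. Other named genes came from the 25 largest rises and falls under the same criteria, from called list members with the smallest p, and from central members of a list that did not pass. Alternatives were another pseudocount, filter or scaling, a fit of 6 libraries, a replicate block, a heat shock covariate, leaving out each library, and edgeR 4.0.16 and DESeq2 1.42.0 on the deposited counts.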

Additional observations from a re-analysis of the deposited data

How the results depend on the processing

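Of 1997 calls (1184 higher, 813 lower; 1042 of CG or CR genes; 274 in the lists described), leaving out 1 library gave 962 to 2199 (655 to 1198 higher, 307 to 1001 lower; 531 to 1093 of CG or CR genes; 163 to 292 in the lists). A fit of the 6 libraries alone gave 925 (681 higher, 244 lower; 529 of CG or CR genes; 150 in the lists). edgeR gave 1033 (572 higher, 461 lower; 550; 155), or 949 without a filter (542 higher, 407 lower; 504; 145), and DESeq2 741 higher. With the heat shock mean as a covariate 574 were called (492 higher, 82 lower; 341; 118), and with Hexa 1 as the only Hexa library, assumed to vary like the other groups and chosen after seeing the data, 865 (549 higher, 316 lower; 496; 147). Dividing by TMM factors moved the share of calls that were higher from 59.3% to 50.2%, and subtracting the length trend to 49.8%. The other pseudocounts and filters left these counts within 1.5-fold.

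Same-numbered control and Hexa libraries had correlations of -0.152, -0.151 and -0.035 in their deviations from the genotype mean. Those with different numbers ran from -0.122 to 0.2. With 3 libraries per genotype this check cannot decide whether the numbers pair the samples. With the number as a replicate block 904 genes were called higher and 469 lower.

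Of the 125 genes named with values, 79 kept their side of the threshold with the heat shock covariate, 99 with Hexa 1 alone and 117 with the length trend subtracted, and 46, 26 and 4 that were called were not called there. By edgeR 16 of them were not called: AttB, CG30480, ChAT, Ctr1A, GATAe, Kr, LanB1, LanB2, Plp, Tdc2, Tk, Ugt36Bc, ftz-f1, insb, natalisin and svp. The sign of 6 genes turned in the count tests. EcR stood at 0.21 (edgeR), 0.22 (edgeR without a filter) and 0.22 (DESeq2) log2 units, PAPLA1 at 1.96, 1.97 and 1.97, PyK at -0.11, -0.10 and -0.11, hb at -0.26, -0.26 and -0.25, nub at -1.15, -1.14 and -1.14 (DESeq2 adjusted p = 0.0284), and pdm2 at -0.62, -0.61 and -0.61. srp turned without a filter, at 0.0893, where it had 0 to 7 deposited counts per library. The counts hold a small part of the reads of genes with several transcripts. Precision rests on 3 libraries per genotype, and no interval from read numbers was given, since the depth behind RPKM is not stated.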
